A study of Mus musculus with 4 samples.

Results

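The Hox genes were examined here as a positional code of stroma, in mesenchymal stroma cells (MSCs) and CD8+ T cells sorted from the same kind of tumor. The members are all genes whose symbol is Hoxa, Hoxb, Hoxc or Hoxd followed only by a number, with symbols taken from the accession of each probe. The array has probes for 39 such genes of 22911 symbols in all, and RefSeq lists the same number of 39. Of these 39 genes, 32 have 1 probe and 7 have 2 probes, which makes 46 probes printed on 1 spot each. The study asked how hosts without Sipa1, a Rap GTPase-activating protein, resist Bcr-abl+ leukemia. Wild-type (Wt) and Sipa1-/- mice of strain C57BL/6Ncr, 8 weeks old and 5 per genotype, were injected under the skin with 15000 GFP+ Bcr-abl+ hematopoietic progenitor cells in Matrigel, a basement membrane gel. Tumors were taken on day 12 in every group. MSCs were sorted as GFP–, CD45–, Ter119– and CD31– cells, a gate set only by markers that the cells lack, and CD8+ T cells as GFP–, TCRb+ and CD8+ cells. How the mice of a genotype were combined is not stated. Each of the 4 conditions has 1 array, so no difference below has a replicate check and none was tested.

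Hox genes encode homeodomain transcription factors that lie in 4 clusters on different chromosomes. Genes at the same place in different clusters are paralogs and share a number, and low numbers are used toward the head and high numbers toward the tail and the ends of the limbs. Adult fibroblasts keep the Hox pattern of the body site they came from, so that the set of Hox genes in a stromal population is a record of its position. Some Hox genes of the A and B clusters are also used by blood progenitors, and Hox proteins bind DNA together with Pbx and Meis cofactors.

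Values are the scanner's processed signals, in arbitrary units after background correction. Ratios are on the log2 scale after the 75th percentile of each array was subtracted, and a log2 ratio of 1, a 2-fold difference, was the threshold of size. A probe counts as detected where it passed the scanner's flags for an unsaturated, uniform spot well above background. Between 59.7% and 64.3% of spots passed on the 4 arrays, and the dimmest signal called well above background lay between 8.12 and 8.78. The error given with a ratio is the software's modelled error of the spots, carried over to the ratio, and holds no spread between mice. Both Sipa1 probes were lower on both Sipa1-/- arrays but remained well above background, in MSCs at 3.78 against 5.03 and 1.46 against 3.05 in log2 level. The MSC arrays detected 19 of 20 fibroblast markers each, Pdgfra being the one that did not pass the flags, and the CD8+ T arrays detected 9 of 9 CD8 T markers each. Pdgfra did pass on both CD8+ T arrays, at log2 levels of -1.88 in Wt and -0.44 in Sipa1-/- cells. A probe can fail for an uneven spot or background as well as for low signal, so MSCs are not shown to lack Pdgfra. Markers of other cells were also present on the MSC arrays. B-lineage markers summed to 689 times the array's 75th percentile on the Wt MSC array and 42.4 times on the Sipa1-/- MSC array. Markers of granulocytes summed to 703 and 787 times in the same order. Those of erythroid cells summed to 383 and 399 times and those of skeletal muscle to 47.1 and 77.0 times. In RNA of a sorted population, more cells of a type and more RNA per cell cannot be told apart, and this holds for every ratio below.

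Promoter windows of 300 bases, most of each upstream of the gene's start and the last part of it downstream, were given for 22 of the 39 genes, in 24 windows of RefSeq on build GRCm38.p6. Of these, 4 are shown because they span the patterns described below. Hoxd4 (chr2:74721728-74722027, plus strand) was detected only on the MSC arrays, and Hoxd8 (chr2:74704365-74704664, plus strand) on all 4 arrays but with far more signal in MSCs. Hoxd13 (chr2:74667975-74668274, plus strand) was detected on no array, and Hoxa7 (chr6:52218524-52218823, minus strand) was detected in both cell types. Capitals mark matches on either strand to any of the motifs searched: TATAAA (the TATA box), CCAAT (the CCAAT box), TGATTNAT (a Pbx-Hox site), TGACAG (a Meis site) and TAATTA (a homeodomain core).
Hoxd4: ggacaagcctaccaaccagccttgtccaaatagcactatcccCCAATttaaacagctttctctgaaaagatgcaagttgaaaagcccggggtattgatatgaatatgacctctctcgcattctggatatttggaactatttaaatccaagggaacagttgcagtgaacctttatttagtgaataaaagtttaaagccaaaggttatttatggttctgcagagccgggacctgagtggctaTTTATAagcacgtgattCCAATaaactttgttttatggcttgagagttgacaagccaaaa
Hoxd8: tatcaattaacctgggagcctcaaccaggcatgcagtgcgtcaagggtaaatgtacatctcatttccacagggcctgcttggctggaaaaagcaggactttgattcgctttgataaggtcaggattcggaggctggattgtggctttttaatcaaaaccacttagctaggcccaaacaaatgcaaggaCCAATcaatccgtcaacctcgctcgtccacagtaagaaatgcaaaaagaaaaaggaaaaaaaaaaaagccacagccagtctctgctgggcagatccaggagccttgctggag
Hoxd13: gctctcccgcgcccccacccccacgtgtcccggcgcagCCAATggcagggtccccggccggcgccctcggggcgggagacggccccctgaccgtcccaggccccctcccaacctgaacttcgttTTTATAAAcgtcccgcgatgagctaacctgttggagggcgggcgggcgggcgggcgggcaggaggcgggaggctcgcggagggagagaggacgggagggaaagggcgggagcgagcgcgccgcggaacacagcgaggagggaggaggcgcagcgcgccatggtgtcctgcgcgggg
Hoxa7: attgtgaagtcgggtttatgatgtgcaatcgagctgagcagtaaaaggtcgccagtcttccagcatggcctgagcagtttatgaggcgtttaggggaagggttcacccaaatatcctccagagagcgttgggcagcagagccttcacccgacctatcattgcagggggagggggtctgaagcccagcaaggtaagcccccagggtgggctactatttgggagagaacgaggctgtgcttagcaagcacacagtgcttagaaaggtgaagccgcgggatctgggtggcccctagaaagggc

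The Hoxd13 window holds 37 CG dinucleotides, while the windows of Hoxd4, Hoxd8 and Hoxa7 hold 4, 6 and 9. These 4 windows do not stand for the rest. The 15 windows of Hox genes detected on the Sipa1-/- MSC array hold 4 to 29, with a median of 14. The 9 windows of those not detected there hold 4 to 45, with a median of 22, so the ranges overlap. Over the 24 Hox windows the median was 14.5 CG dinucleotides, against 7 over all 32851 windows. The CCAAT box was found in 15 of 24 Hox windows, 62.5%, and in 37.4% of all windows. TATAAA was found in 4 of the 24, or 16.7%, against 13.6% of all windows. In Hoxd13 the TATAAA matches of both strands overlap, and in Hoxa7 none of the motifs was found. TGATTNAT, TGACAG and TAATTA were each found in 2 Hox windows, 8.33%, and in 3.22%, 19.2% and 5.29% of all windows. A match is a description of the letters and not of binding.

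The 4 arrays detected different numbers of Hox genes. The Wt MSC array detected 25 of 39 Hox genes and the Sipa1-/- MSC array 27, whereas the CD8+ T arrays detected 11 in Wt and 15 in Sipa1-/- cells. Over all symbols these arrays were closer to each other, with 69.2%, 70.2%, 64.4% and 64.9% detected in the same order. In all, 27 Hox genes were detected on at least 1 array and 11 on all 4. The MSC arrays held an almost complete central block, since of the 15 genes with paralog numbers 4 to 8 the Wt array detected 14 and the Sipa1-/- array all 15. All 4 genes of paralog number 9 were detected on both MSC arrays, as were 2 of the 3 genes of number 10. Beyond this the signal ended. Of the 9 genes with paralog numbers 11 to 13, the Wt MSC array detected 0 and the Sipa1-/- MSC array 1, Hoxa11. At the anterior end, 5 of the 8 genes with numbers 1 to 3 were detected on each MSC array. The clusters differed in how much of them was detected. On the Wt MSC array these were 7 of 11 Hoxa genes, 8 of 10 Hoxb genes, 6 of 9 Hoxc genes and 4 of 9 Hoxd genes.

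**Figure D1:**
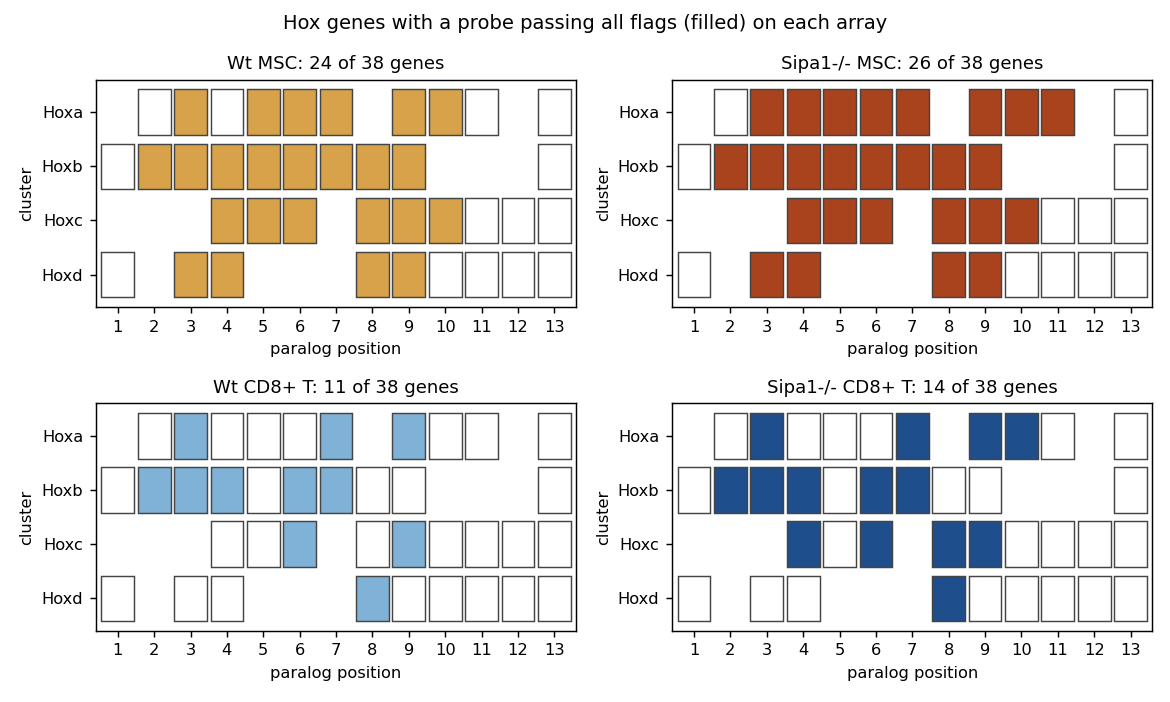
Map of 38 Hox genes by cluster (rows) and paralog position (columns) for each of the 4 arrays; filled boxes are genes with at least 1 probe that passed all flags, open boxes are genes on the array that did not, and blanks are positions not drawn. The MSC arrays filled 24 and 26 boxes, mostly at positions 3 to 10, and the CD8+ T arrays 11 and 14.

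The 12 genes detected on no array were Hoxa2, Hoxa13, Hoxb1, Hoxb13, Hoxc11, Hoxc12, Hoxc13, Hoxd1, Hoxd10, Hoxd11, Hoxd12 and Hoxd13. Most of these lie at the posterior ends, used in the hind parts of the trunk, the genital region and the distal limb. Hoxa2, a gene of the hindbrain and the second branchial arch, failed for another flag. Its probe was well above background on both MSC arrays, with signals of 10.5 in Wt and 31.9 in Sipa1-/- cells, but the background around the spot was marked as non-uniform. For the other 11 genes no spot was well above background on any array, which sets only an upper bound near the dimmest signals called.

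In MSCs the detected Hox genes were nearly all higher on the Sipa1-/- array. Of 25 Hox genes measured on both MSC arrays, 24 were higher by 2-fold or more on the Sipa1-/- array and 0 were lower by as much. Of all 15298 genes measured on this pair, 19.3% were higher and 11.3% lower by as much. The Hox ratios had a median of 1.85, a 3.60-fold difference, with an interquartile range of 1.64 to 2.06. Over all genes the median was 0.04 and the interquartile range -0.51 to 0.75. The Hox genes lay close together, high in the range of genes at large. Their summed level was 10.3 times the 75th percentile on the Wt array and 36.2 times on the Sipa1-/- array. With normexp, a background correction that adds an offset to all signals, 15 of the 25 were past 2-fold and all 25 were still higher. Of all genes, 11.9% were higher and 7.78% lower by 2-fold or more with normexp.

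The anterior genes (numbers 1 to 3) showed both the pattern and its exceptions. Hoxb2, which patterns the hindbrain, gave signals of 185 in Wt and 634 in Sipa1-/- MSCs, a log2 ratio of 1.81 ± 0.20 (modelled spot error). Hoxa3, needed for the thymus and parathyroid glands, gave 77.7 and 298 on the probe detected on both arrays, a ratio of 1.98 ± 0.21. The other Hoxa3 probe passed only on the Sipa1-/- array, at 10.3. Hoxb2 and Hoxa3 were higher by similar amounts, several times their spot errors. Hoxd3, a gene of the cervical vertebrae, gave 17.9 and 36.5, with a ratio of 1.07 ± 0.26 that lay near the threshold. Hoxb3 was the 1 gene of 25 under 2-fold, with a ratio of 0.76 ± 0.15, and its 2 probes went opposite ways. One probe gave 34.1 and 127, a ratio of 1.93, and the other gave 72.6 and 52.7, a ratio of -0.42. The probe that was lower also gave 44.7 and 46.2 on the CD8+ T arrays, whereas the probe that was higher was not detected there. The other genes with several probes measured in MSCs, Hoxa9, Hoxa10 and Hoxd8, had probe ratios within 0.31 of each other.

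The central genes (numbers 4 to 8), which pattern the neck and thorax, were at least 2-fold higher in Sipa1-/- MSCs for all 14 measured, with a median of 1.87. With normexp 10 of these 14 were past 2-fold, and Hoxa5, Hoxa6, Hoxb5 and Hoxc5 were not. In the Hoxa cluster, Hoxa5, needed for the lung and the shoulder, gave signals of 14.6 in Wt and 68.6 in Sipa1-/- MSCs, a ratio of 2.27 ± 0.26. Hoxa6 gave 8.63 and 18.8, a ratio of 1.17 ± 0.37, and its Wt signal was close to the detection limit. Hoxa7, also used in blood progenitors, gave 352 and 1295, a ratio of 1.92 ± 0.20. Hoxa4 passed the flags only on the Sipa1-/- array, with 6.96 in Wt and 17.9 in Sipa1-/- MSCs. Set against the dimmest signal called on the Wt array, it was at least 2.27-fold higher.

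In the central Hoxb genes the ratios ran from 1.28 to 2.87. Hoxb4, which expands blood stem cells when overexpressed, gave 369 in Wt and 873 in Sipa1-/- MSCs, a ratio of 1.28 ± 0.20. Hoxb5, which helps place the shoulder girdle, gave 12.0 and 46.9, a ratio of 2.00 ± 0.31. Hoxb6 gave 129 and 392, a ratio of 1.64 ± 0.21. All 3 were higher by more than their spot error, with Hoxb4 among the smaller shifts. Hoxb7, which patterns the upper ribs, gave 475 and 1496, a ratio of 1.70 ± 0.20. Hoxb8, known as an immortalizing gene of myeloid progenitors, gave 15.9 and 113 on the probe detected on both arrays, a ratio of 2.87 ± 0.26. This was a 7.30-fold difference, the highest of the 25, but with normexp the ratio was 1.26 and Hoxc8, at 2.02, was the highest. The other Hoxb8 probe was detected only on the Sipa1-/- array, at 40.1.

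In the central Hoxc and Hoxd genes the shifts were closer together, with ratios between 1.59 and 2.18. Hoxc4, a gene of the neck level, gave 185 in Wt and 668 in Sipa1-/- MSCs, a ratio of 1.89 ± 0.20. Hoxc5 gave 27.3 and 79.9, a ratio of 1.59 ± 0.23. Hoxc6, a gene of the thoracic level, gave 1059 and 3676, a ratio of 1.84 ± 0.20. The 3 genes were each between 3.01-fold and 3.70-fold higher. Hoxc8, which also marks the thorax and forelimb nerves, gave 334 and 1468, a ratio of 2.18 ± 0.20. Hoxd4, which patterns the first neck vertebrae, gave 109 and 382, a ratio of 1.85 ± 0.21. Hoxd8 gave 784 and 2811 on its brighter probe and 158 and 580 on the other, with a mean ratio of 1.90 ± 0.14 and 0.04 between the probes.

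The posterior genes (numbers 9 to 13) were measured for 6 of 16, all with numbers 9 or 10, and these 6 were all at least 2-fold higher, with a median of 1.93. With normexp 2 of the 6, Hoxa10 and Hoxc9, were past 2-fold. Hoxa9, a regulator of blood progenitors and a leukemia gene, gave 31.5 in Wt and 67.6 in Sipa1-/- MSCs on one probe and 31.8 and 83.9 on the other, a mean ratio of 1.29 ± 0.16. Hoxb9, a gene of the rib cage and forelimb, gave 12.3 and 49.8, a ratio of 2.06 ± 0.30, and its second probe was detected nowhere. Hoxc9, which marks the lower thorax, gave 725 and 2457, a ratio of 1.80 ± 0.20. These genes were higher on the Sipa1-/- array by 2.44-fold to 4.17-fold. Hoxd9, which acts in the forelimb, gave 21.3 and 67.5, a ratio of 1.70 ± 0.24. Hoxa10, used in the lumbar region, uterus and blood progenitors, gave 129 and 661 on one probe and 21.4 and 88.3 on the other, a mean ratio of 2.24 ± 0.16. Hoxc10, a gene of the lumbar level and hindlimb, gave 14.7 and 73.2, a ratio of 2.36 ± 0.26. Hoxa11, a gene of the forearm and uterus, gave 10.7 on the Sipa1-/- array and did not pass on the Wt array, which makes it at least 1.35-fold higher.

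**Figure D2:**
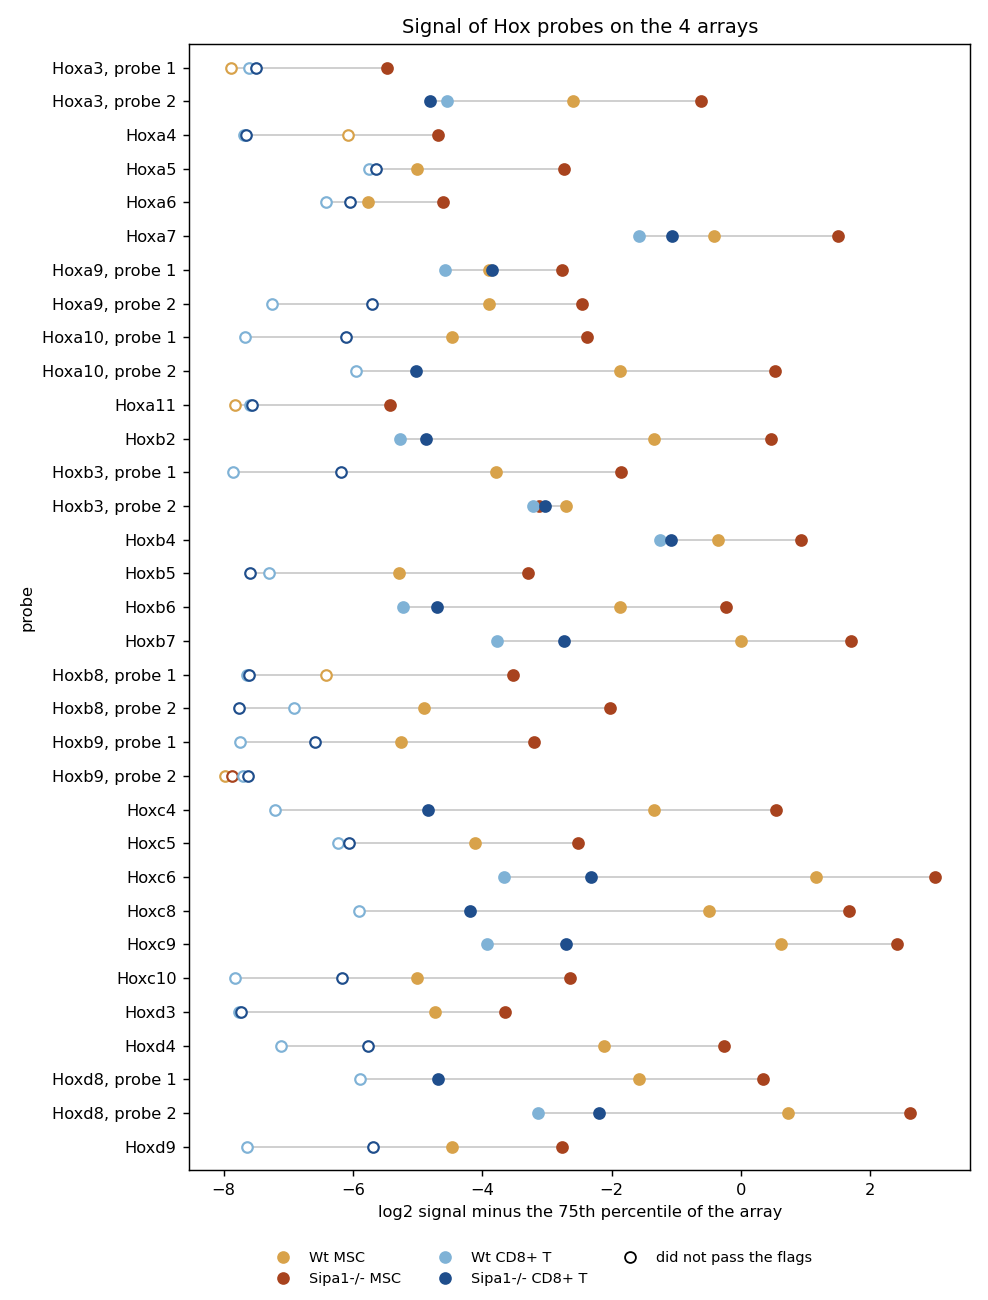
Log2 signal minus the array's 75th percentile (horizontal axis) for each probe of 26 Hox genes detected on any array (rows), with 1 point per array; open points did not pass the flags, and grey lines join the lowest and highest array. Sipa1-/- MSC points lie to the right of Wt MSC points for all probes measured on both MSC arrays except the second Hoxb3 probe, and CD8+ T points lie mostly near the lower limit.

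Without normexp, the ratios in MSCs were alike by position and by cluster. The medians were 1.81 for anterior, 1.87 for central and 1.93 for posterior genes, and 1.98, 1.76, 1.86 and 1.77 for the Hoxa, Hoxb, Hoxc and Hoxd genes. With normexp 3 of 5 anterior, 10 of 14 central and 2 of 6 posterior genes were past 2-fold, so the positions were less alike there. The 6 Hox genes known in blood progenitors, Hoxa5, Hoxa7, Hoxa9, Hoxa10, Hoxb3 and Hoxb4, had a median of 1.60, with 5 of 6 at least 2-fold higher. The other 19 measured Hox genes had a median of 1.85, and 19 of 19 were at least 2-fold higher.

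**Figure D3:**
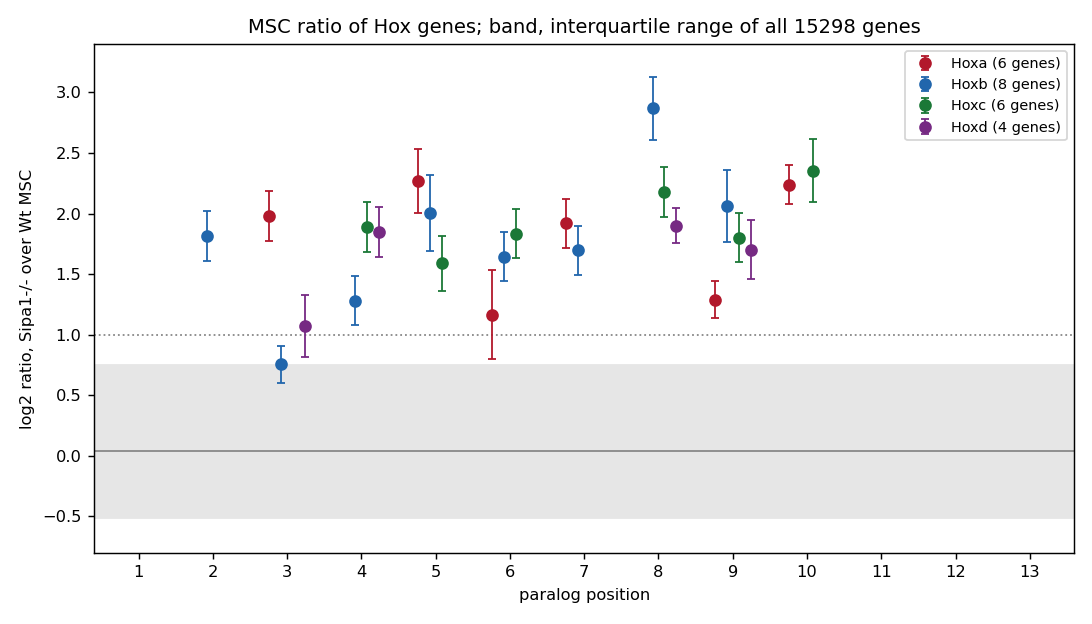
Log2 ratio of Sipa1-/- over Wt MSCs (vertical axis) for 24 Hox genes measured on both arrays, by paralog position (horizontal axis) and cluster (color). Bars are the modelled spot error, the grey band is the interquartile range of all 15298 genes (-0.51 to 0.75) around their median of 0.04, and the dotted line is a 2-fold difference. Of the 24 points, 23 lie above the dotted line, and Hoxb3 lies at 0.76.

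Other transcripts from inside the clusters were mostly higher in Sipa1-/- MSCs as well, while the genes just outside lay around no difference. Of 8 such transcripts on the array, most of them antisense or non-coding RNAs, 6 were measured in MSCs and 4 were at least 2-fold higher on the Sipa1-/- array. Mira, a non-coding RNA between Hoxa6 and Hoxa7, had a ratio of 1.74, Haglr of the Hoxd cluster 1.54, and Hoxaas3 1.58. Hoxd3os1 had 1.79, Hoxa11os 0.88 and Hoxb5os 0.27. Whether the probes of antisense transcripts read that strand alone was not tested. Of 10 genes that flank the clusters, 9 were measured, 0 were past 2-fold upward and 1 downward, with a median of 0.18. Mtx2, next to the Hoxd cluster, had a ratio of -0.01, Skap2, next to Hoxa, 0.18, and Cbx1, near Hoxb, -1.54.

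The cofactors of Hox proteins were all detected on both MSC arrays and shifted less evenly. Of 9, 4 were past 2-fold upward and 1 downward, with a median of 0.88. Pknox2 had a ratio of 0.88 and Meis2 of 2.01. Meis1, Meis3 and Pbx4, named after their values were seen, had 2.32, 1.59 and -1.06. The regulators measured upstream of Hox genes, chiefly genes of the Polycomb proteins that keep Hox genes off, had the opposite lean. Kmt2a, a trithorax gene of the list, had no probe assigned to it. Of 18 measured, none of them a Cdx factor, 0 were past 2-fold upward and 5 downward, with a median of -0.69. Eed, a Polycomb subunit, had a ratio of -0.79, Men1 -0.74 and the insulator protein Ctcf -1.26. Named after their values were seen, the Polycomb genes Ezh2, Cbx2 and Suz12 had -2.88, -1.92 and -1.57. The caudal factors Cdx2 and Cdx4 were detected on no array, and Cdx1 passed the flags only on the Sipa1-/- MSC array.

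Other transcription factors that mark position in trunk and limb mesenchyme shifted about as much as the Hox genes. Of 34 listed, 24 were measured in MSCs, 18 were past 2-fold upward and 1 downward, with a median of 1.75. Prrx1, a general limb and dermal mesenchyme factor, had a ratio of 1.82, its relative Prrx2 1.55 and Msx1 2.14. Named after their values were seen, Tbx5, the forelimb factor, had 2.38, and Pitx1, a hindlimb factor, 3.26. Tbx4, also of the hindlimb, was the 1 gene past 2-fold downward, at -2.72.

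Markers of cell types moved in the same comparison. Of 19 measured fibroblast markers, 14 were at least 2-fold higher on the Sipa1-/- MSC array and 0 lower, with a median of 1.65, close to that of the Hox genes, and their summed level went from 1165 to 2032 times the 75th percentile. Of 11 B-lineage markers, 11 were past 2-fold downward, with a median of -4.16. All 8 common leukocyte markers were lower, 7 of them past 2-fold, with a median of -2.01. The summed fibroblast level was 1.74-fold higher on the Sipa1-/- array and the summed Hox level 3.52-fold higher. The brightest fibroblast markers, Col1a2, Dcn and Col3a1, weigh most in that sum and had log2 ratios of 0.35, 0.86 and 0.38. The 2 sums therefore differ more than the 2 medians do. The part of these cell types in the Hox ratios was not tested.

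**Figure D4:**
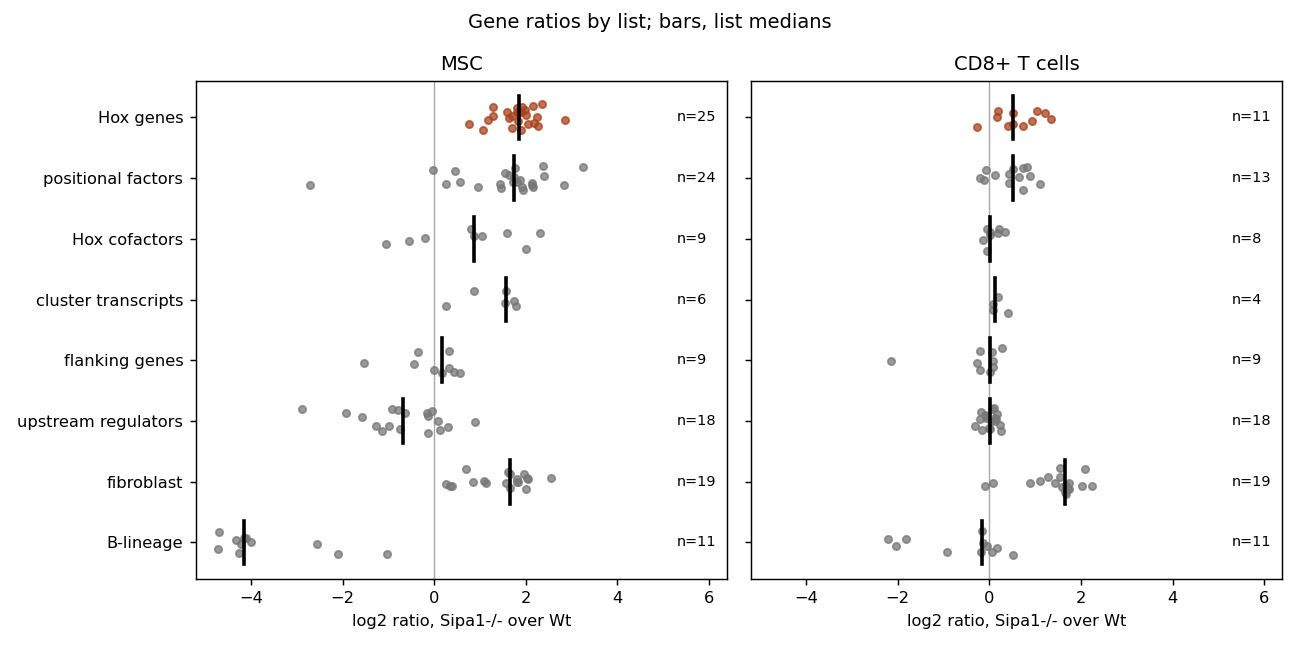
Log2 ratios of Sipa1-/- over Wt (horizontal axes) for single genes (points) of the Hox genes and 7 lists (rows), in MSCs (left panel) and CD8+ T cells (right panel); black bars are list medians and n is the number of genes measured. In MSCs the Hox median of 1.85 lies beside those of the positional factors (1.75) and fibroblast markers (1.65), and in CD8+ T cells the Hox median is 0.52 and the fibroblast median 1.65.

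In CD8+ T cells fewer Hox genes were detected, and the genotypes differed less. Of 11 Hox genes measured on both arrays, 3 were higher by 2-fold or more in Sipa1-/- cells and 0 lower, where 2.66% and 1.4% of all 14339 genes were higher and lower by that much. The Hox median was 0.52, against -0.02 over all genes. Hoxc6 gave signals of 32.5 in Wt and 75.7 in Sipa1-/- cells, a ratio of 1.35 ± 0.23. Hoxc9 gave 27.2 and 57.6, a ratio of 1.22 ± 0.23, and Hoxb7 gave 30.3 and 56.7, a ratio of 1.04 ± 0.23. These 3 genes had MSC signals many times higher. Hoxd8 gave 47.2 and 82.2, a ratio of 0.93 ± 0.21. Hoxb6 gave 11.1 and 14.5, a ratio of 0.52 ± 0.37, Hoxb2 10.7 and 12.9, a ratio of 0.41 ± 0.41, and Hoxa3 17.7 and 13.5, a ratio of -0.26 ± 0.35. For Hoxb2 and Hoxa3 the ratio was no larger than its spot error. With normexp 0 of the 11 genes were past 2-fold upward, against 0.753% of all genes.

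Of the 6 Hox genes known in blood progenitors, 4 were measured in CD8+ T cells. Hoxa7 gave 139 in Wt and 180 in Sipa1-/- cells, a ratio of 0.51 ± 0.21. Hoxa9 gave 17.4 and 26.3 on one probe, a ratio of 0.73 ± 0.27. Hoxb4 gave 175 and 178, a ratio of 0.16 ± 0.21, and Hoxb3 44.7 and 46.2, a ratio of 0.18 ± 0.22. None of these 4 was past 2-fold, and their median was 0.35. Hoxa7 and Hoxa9 were higher by more than their spot error, and Hoxb4 and Hoxb3 were not. A further 4 genes passed the flags on the Sipa1-/- array only. Of these, Hoxa10 gave 11.6 there, at least 1.45-fold higher than in Wt cells, Hoxc4 13.2, at least 1.65-fold, and Hoxc8 20.6, at least 2.57-fold.

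On the CD8+ T arrays fibroblast markers were present too and differed by genotype. Their summed level was 263 times the 75th percentile in Wt and 364 times in Sipa1-/- cells, and 16 of 19 measured were at least 2-fold higher in Sipa1-/- cells, with a median of 1.65. Thy1 and Vim, which T cells also make, carried most of this sum, and the other fibroblast markers summed to 46.1 and 139 times, a 3.02-fold difference. CD8 T markers summed to 522 and 547 times, and granulocyte markers to 617 and 328 times. Of the 13 positional factors measured, 1, Prrx1 at 1.10, was past 2-fold, and the median was 0.52. The part of stromal RNA in the Hox signal of the CD8+ T arrays was not tested.

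Between the cell types the Hox genes lay on a wide range. On the Wt arrays 8 of 11 measured Hox genes were at least 2-fold higher in MSCs and 0 lower by as much, and 17.3% and 12.8% of all 14225 genes were higher and lower by that much. The Hox median was 3.35. With normexp it was 1.24, and 6 of the 11 were past 2-fold upward, against 12.4% of all genes. On the Sipa1-/- arrays 14 of 15 were past 2-fold in MSCs and 0 were lower by as much, against 21.9% and 18.7% of all 14300 genes, and the Hox median was 4.48. Both comparisons share arrays with those above, so the values are set side by side only. Hoxc6 was 28.6-fold higher in MSCs on the Wt arrays and 40.0-fold on the Sipa1-/- arrays, Hoxc9 23.4-fold and 35.1-fold, and Hoxd8 14.6-fold and 30.2-fold. For Hoxd8 the Wt value comes from 1 probe and the Sipa1-/- value from 2. The probe measured in both had log2 ratios of 3.87 on the Wt arrays and 4.81 on the Sipa1-/- arrays. Hoxb2, Hoxb7 and Hoxb6 were 15.2-fold, 13.7-fold and 10.2-fold higher on the Wt arrays. At the other end, Hoxb3, Hoxa9 and Hoxb4 were under 2-fold on the Wt arrays, with log2 ratios of 0.51, 0.67 and 0.89, and Hoxa7 was at 1.15. For Hoxb3 and Hoxa9 these ratios come from the 1 probe detected in both cell types. Their other probes were not detected in Wt CD8+ T cells and were at least 3.41-fold and at least 3.18-fold higher in Wt MSCs. The 4 genes are all among the 6 Hox genes known in blood progenitors, and their median was 0.78 on the Wt arrays. That list was chosen with earlier results of these data known, so the overlap is a description only. Hoxa5 and Hoxa10, also among the 6, were not detected in Wt CD8+ T cells and do not enter the median of 0.78. In Wt MSCs Hoxa5 was at least 1.46-fold higher, and Hoxa10 at least 12.9-fold and at least 2.14-fold on its probes. The median of the other 7 Hox genes measured was 3.87. Hox genes outside the 6 that were not detected in Wt CD8+ T cells do not enter the median of 3.87. On the Sipa1-/- arrays the 2 medians were 2.01 and 5.02, over 5 and 10 genes, and Hoxa10 stood away from its list at 5.55. Hoxb3 was the 1 gene not higher in Sipa1-/- MSCs, at -0.09 ± 0.22, measured by the probe that was lower in the MSC comparison. Its other probe was not detected in Sipa1-/- CD8+ T cells and was at least 12.4-fold higher in MSCs, and the other Hoxa9 probe at least 8.21-fold higher.

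**Figure D5:**
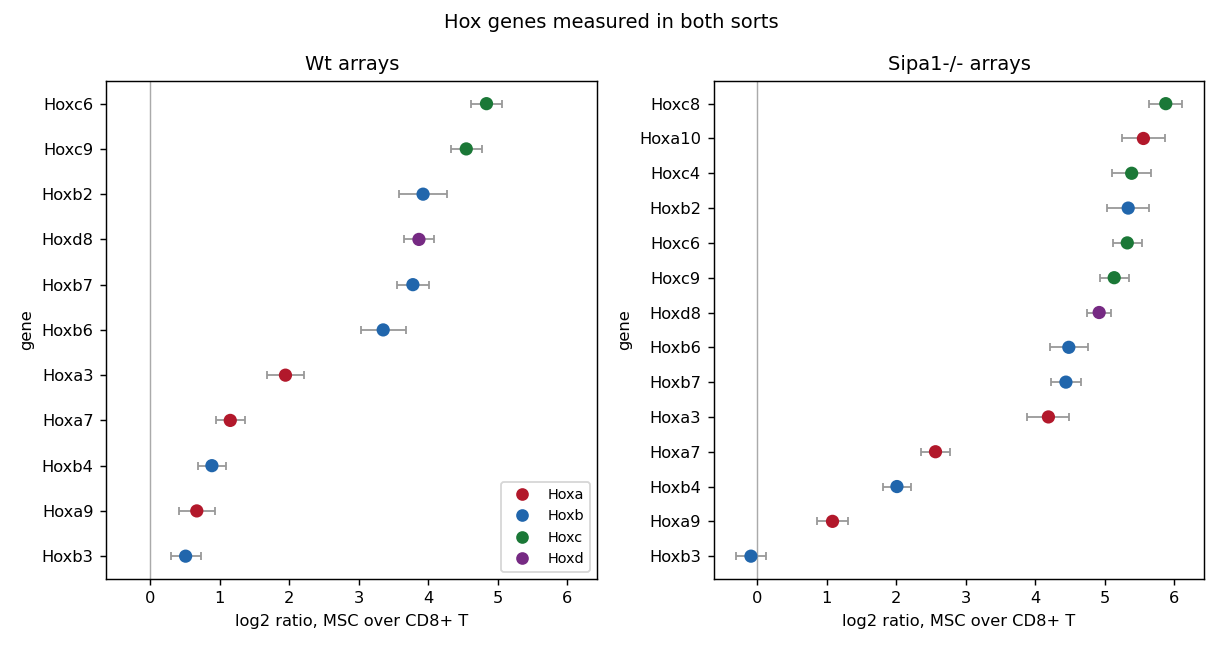
Log2 ratio of MSCs over CD8+ T cells (horizontal axes) for 11 Hox genes (Wt) and 14 (Sipa1-/-) that passed the flags on both arrays of a genotype (rows, in the order of their ratio), colored by cluster; bars are the modelled spot error. Hoxb3, Hoxa9, Hoxb4 and Hoxa7 have the 4 lowest ratios on the Wt arrays (left panel, 0.51 to 1.15), and Hoxc6 the highest, at 4.84. For Hoxb3 and Hoxa9 a second probe, not detected in CD8+ T cells and not drawn, had bounds of at least 3.41-fold and 3.18-fold on the Wt arrays.

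Hox genes detected in MSCs but not in CD8+ T cells allow only a lower bound. On the Wt arrays these were 14 genes. Hoxc8 was at least 33.4-fold higher in MSCs, Hoxc4 at least 18.5-fold and Hoxd4 at least 10.9-fold. Hoxa10 was at least 12.9-fold higher on one probe and at least 2.14-fold on the other, Hoxc5 at least 2.73-fold and Hoxd9 at least 2.14-fold. Of the 14, 7 had bounds under 2-fold or, for Hoxa6, no bound above 1. On the Sipa1-/- arrays 12 genes had bounds, of which Hoxd4, at least 37.4-fold, was the highest and Hoxa11, at least 1.05-fold, the lowest. Hoxd4, Hoxd3 and Hoxd9 were detected in MSCs of both genotypes and in CD8+ T cells of neither, which left Hoxd8 as the 1 Hoxd gene seen in both cell types.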

How the data were processed

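RNA of sorted cells was hybridized in one color (Cy3) to Agilent mouse 8 x 60K arrays, 1 per condition. The deposited scanner files hold spot intensities (processed signal, background-corrected by Feature Extraction, and its modelled error) and per-spot flags, with no normalization between arrays. The file headers name Feature Extraction 12.0.3.1 and the submitters' processing notes name 9.1. The deposited series matrix holds the same intensities times 1 constant per array, and how the authors chose the constants is not stated.

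Non-control spots were named by accession through a RefSeq table of GRCm38.p6, which gave a symbol to 57.6% of them. Signals were put on the log2 scale minus the array's 75th percentile. Spots were kept with the flags of the study's methods (IsSaturated, IsFeatNonUnifOL and IsBGNonUnifOL at 0, IsPosAndSignif and IsWellAboveBG at 1) on both arrays of a pair, and averaged per probe and then per gene. Where a probe passed on 1 array and was not well above background on the other, its fold is a bound. The bound is set against the higher of the dim array's lowest signal called well above background and the probe's own signal there. A gene has a bound where none of its probes was well above background on the dim array. A log2 ratio of 1 was the threshold, and there was no test. With 1 array per condition, the number of arrays limits the precision. All 4 arrays lie on 1 slide and were scanned together.

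All Hox genes were to be named, and of other lists the 3 with the highest level on the Sipa1-/- MSC array, unless the text says otherwise. A few single-gene values are not reported here and are left out of the plots of single Hox genes, but they count in the totals. Members and lists were chosen with earlier results of these data known. Alternatives were a median shift, quantile normalization, the series matrix, normexp with an offset of 50, no flags, flags on at least 1 array, and the brightest probe. Normexp had been planned on the mean spot signal and was run on the median, the signal the files hold. Python 3.11.15, numpy 2.4.6, pandas 2.3.3, matplotlib 3.10.9, R 4.3.3 and limma 3.58.1 were used. The computation was checked on simulated data.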

Additional observations from a re-analysis of the deposited data

Results flagged for a closer look

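Hoxa3 went opposite ways in the cell types. Its log2 ratio of Sipa1-/- over Wt was 1.98 in MSCs and -0.26 in CD8+ T cells, on the same probe, with a modelled spot error of 0.35 in CD8+ T cells. Whether these ratios differ was not tested. With normexp the CD8+ T ratio changed sign.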

How the results depend on the processing

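No paired analysis was possible because there is only 1 array of a kind, and for the same reason no replicate could be left out. In MSCs the number of Hox genes at least 2-fold higher on the Sipa1-/- array was 24 and fell to 15 with normexp, which adds an offset that draws dim signals together. The percentage of all genes past 2-fold upward went from 19.3% to 11.9%. With no flags the number of Hox genes lower went from 0 to 2 (Hoxc12 and Hoxd13) of 39, where 10.5% of all genes were lower. All 25 ratios kept their sign under every alternative run. In CD8+ T cells the number higher was 3 of 11 and became 0 of 11 with normexp, 12 of 39 with no flags and 6 of 15 with flags on at least 1 array, while the percentage of all genes past 2-fold upward went from 2.66% to 0.753%, 4.62% and 4.49%, and the number lower went from 0 to 1 (Hoxa13) with no flags. Between cell types the number higher in MSCs went from 8 of 11 to 26 of 39 with no flags and 22 of 25 with flags on at least 1 array on the Wt arrays (17.3%, 18.3% and 23.8% of all genes), where 2 genes (Hoxa13 and Hoxd10) became lower with no flags, and from 14 of 15 to 31 of 39 and 27 of 27 on the Sipa1-/- arrays (21.9%, 21.9% and 28.5% of all genes). With normexp the Hox median between cell types went from 3.35 to 1.24 on the Wt arrays and from 4.48 to 3.03 on the Sipa1-/- arrays. Without flags, genes near background enter. The Hox median in MSCs ranged from 1.28 (normexp) to 2.05 (series matrix). Hoxa3 in CD8+ T cells changed sign with normexp, and Hoxb3 between cell types of the Sipa1-/- arrays changed sign with the series matrix and with either looser use of flags. The numbers of Hox genes detected stayed within 1.5 times when being well above background was the only flag (26, 28, 11 and 15).

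Scaling moved the median of all genes. In MSCs it was 0.04, -0.10 with a median shift and 0.25 with the series matrix, and, of the genes past 2-fold, the percentage that were higher went from 63.1% to 54.1% and 74.1%. In CD8+ T cells that percentage went from 65.5% to 52.5% and 76.3%, and was 52.4% with normexp. Between cell types it went from 57.4% to 45.5% and 76.6% on the Wt arrays and from 54.0% to 42.9% and 76.3% on the Sipa1-/- arrays. The Hox median in MSCs exceeded that of all genes by 1.80 in the main setting, which a constant per array cannot change, by 1.86 with quantile normalization, 1.58 with no flags and 1.25 with normexp.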
